A study of Mus musculus with 12 samples.

Results

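The 39 protein-coding members of the mouse Hox clusters, taken as every gene whose symbol is Hox with a cluster letter a to d and a number, were followed through adipose tissue. They made up 39 of the 47729 genes listed in each deposited table. Of these, 26 had enough reads to enter the test and 13 did not. RNA was measured by sequencing of total RNA depleted of ribosomal RNA, as single-end reads of 75 bases, in 12 libraries from male wild-type C57BL/6J mice aged 6 to 10 weeks on a high-fat rodent diet. There were 3 libraries from each of 4 depots: brown fat from between the shoulder blades (BAT) and white fat from beside the epididymis (EWAT), the groin (IWAT) and behind the peritoneum (RWAT). Every library came from fat that had been surgically denervated, so depots were compared with one another and an effect of denervation could not be tested. The labels do not say whether the 3 libraries of a depot came from separate animals, and the p-values below therefore cover only how these libraries vary, which may be technical variation.

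Hox genes encode homeodomain transcription factors that give cells a position along the axis from head to tail. They lie in clusters in which the low-numbered genes at the cluster's 3′ end are switched on first and furthest forward in the embryo, and the high-numbered genes at its 5′ end later and further back. Genes with the same number in different clusters are paralogues, and Hox proteins bind DNA together with Pbx and Meis cofactors. Fat cells and their progenitors keep much of this positional pattern in the adult, so depots from different parts of the body differ in it.

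The HoxA cluster is on chromosome 6, HoxB on 11, HoxC on 15 and HoxD on 2 (GRCm38). Hoxa7 (chr6:52214491-52221854), Hoxa9 (chr6:52223100-52231089) and Hoxa10 (chr6:52231197-52240854) lie next to one another on the minus strand. BAT and EWAT levels were apart from those of IWAT and RWAT at Hoxa9 and Hoxa10, and at Hoxa7 only from IWAT. The 250 bases before the start sites of these genes are shown for that reason, from RefSeq (GRCm38.p6), 5′ to 3′ on the minus strand. Capitals mark a match to a searched motif. The table gives Hoxa10 a pair of start sites, and 22 of the 39 members had a window there. The windows of Hoxa7 and Hoxa9 and the first of Hoxa10 lie inside the longer gene spans that GENCODE M21 gives.
Hoxa7, chr6:52218574-52218823: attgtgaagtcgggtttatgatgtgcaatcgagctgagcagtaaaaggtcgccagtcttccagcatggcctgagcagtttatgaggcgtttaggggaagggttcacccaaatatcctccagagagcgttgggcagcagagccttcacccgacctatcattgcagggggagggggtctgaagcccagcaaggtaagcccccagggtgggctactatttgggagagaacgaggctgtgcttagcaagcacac
Hoxa9, chr6:52227371-52227620: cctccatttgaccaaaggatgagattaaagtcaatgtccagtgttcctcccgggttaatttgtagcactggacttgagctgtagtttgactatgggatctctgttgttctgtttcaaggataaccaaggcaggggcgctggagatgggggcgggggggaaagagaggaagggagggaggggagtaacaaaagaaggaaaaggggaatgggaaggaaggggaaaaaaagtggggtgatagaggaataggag
Hoxa10, chr6:52234940-52235189: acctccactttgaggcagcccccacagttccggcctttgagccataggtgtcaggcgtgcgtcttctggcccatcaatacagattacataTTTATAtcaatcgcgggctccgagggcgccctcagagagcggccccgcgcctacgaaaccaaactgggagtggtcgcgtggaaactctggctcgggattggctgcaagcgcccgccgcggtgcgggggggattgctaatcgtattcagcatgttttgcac
Hoxa10, chr6:52240855-52241104: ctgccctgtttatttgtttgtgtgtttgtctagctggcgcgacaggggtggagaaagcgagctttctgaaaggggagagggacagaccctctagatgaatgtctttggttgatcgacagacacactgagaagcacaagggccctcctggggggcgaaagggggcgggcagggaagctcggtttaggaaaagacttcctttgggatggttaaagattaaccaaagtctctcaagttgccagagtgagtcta
On both strands the motifs searched were TGATTNAT for Pbx with Hox, TTTATNG for Cdx, TATAAA for the TATA box and TGACAG for Meis. Matches of the Cdx motif and the TATA box can overlap. The capitals in the first Hoxa10 window are a TATA box match on the other strand at position -160 from the start, and the other 3 windows held none of the 4 motifs. Among all 32851 windows of 250 bases in the RefSeq table, the Pbx-Hox motif was found in 2.82%, the Cdx motif in 9.81%, the TATA box in 12.4% and the Meis motif in 15.9%. The Hoxa9 window held 3 CpG dinucleotides and the Hoxa7 window 7, against a median of 6 over all windows, and the first Hoxa10 window held 20. These matches are descriptions of the letters in the windows.

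Total expected counts ranged from 12933516 to 21106554 per library. The labelled depots were checked against marker genes. Ucp1, the uncoupling protein of brown fat, was 792.09 TPM in BAT 1 and 0.21 and 1.02 TPM in BAT 2 and BAT 3, while Zic1, a factor of the dorsal trunk lineage of this depot, was 2.54 to 8.97 TPM in the BAT libraries and at most 0.59 TPM in all others. The 10 brown fat markers summed to 1745 TPM in BAT 1 and to 23.18 and 34.0 TPM in BAT 2 and BAT 3, below the 38.97 to 275.8 TPM of IWAT. The 12 pan-adipocyte markers summed to 32000 to 34910 TPM in IWAT, 1722 to 7304 in EWAT (lowest in EWAT 1), 5163 to 13590 in RWAT and 5394 to 23840 in BAT. The 12 skeletal muscle markers summed to 600.9 TPM in RWAT 1 and 2423 in RWAT 3, against 22.76 in RWAT 2 and 6.14 to 123.5 in the other depots. The 12 mesothelial markers summed to 22.3 to 91.7 TPM in EWAT, to 2.41 in RWAT 1 and 30.2 to 32.6 in the other RWAT libraries, and to at most 3.9 in IWAT and BAT. Epididymal markers summed to at most 0.21 TPM in any library. In bulk tissue, fewer cells of a type and less RNA per cell cannot be told apart.

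**Figure D1:**
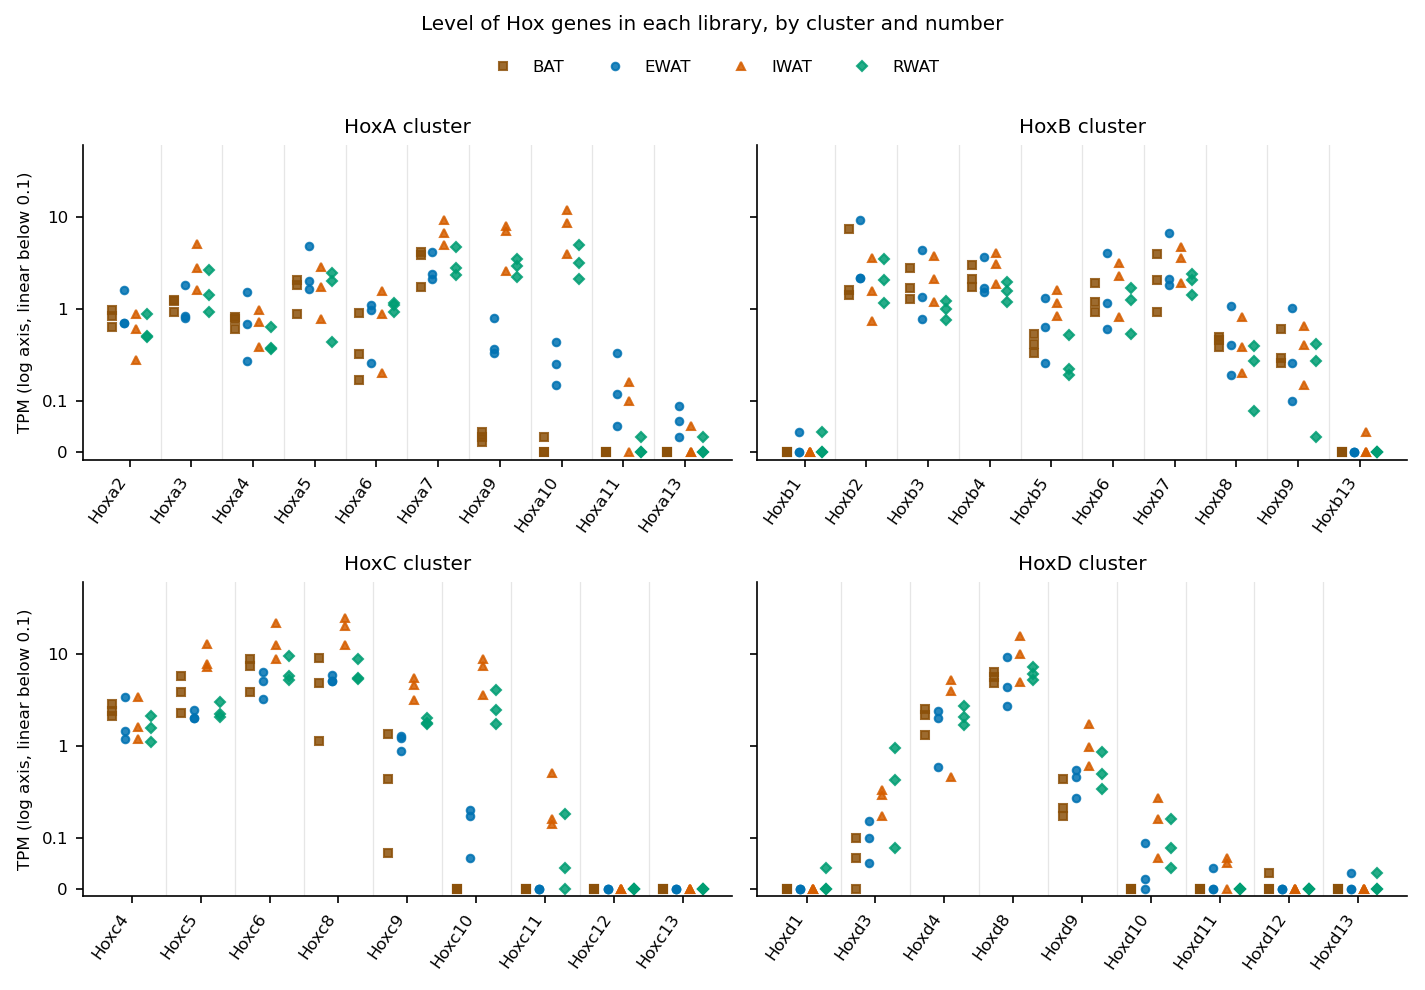
TPM (log axis, linear below 0.1) of Hox genes, in cluster order along the horizontal axis, with 1 point per library coloured by depot. Hoxa9, Hoxa10 and Hoxc10 are near 0 in BAT, at most 0.79 in EWAT and 1.73 or more in IWAT and RWAT.

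The Hox genes as a class were transcribed at low levels, given here in TPM, RSEM's share of all transcripts, a unit that accounts for gene length. Their sum was 34.3 to 59.7 TPM in BAT, 34.5 to 80.7 in EWAT, 95.2 to 152.8 in IWAT and 52.1 to 58.9 in RWAT. Hoxc8, a central gene, was the most abundant member by mean TPM in HoxC (8.95 over all 12 libraries), Hoxd8 in HoxD (6.81), Hoxa7 in HoxA (4.10) and Hoxb2 in HoxB (3.06). The 13 members that were not tested reached at most 0.94 TPM in any library and at most 47 counts in all 12 libraries together, and Hoxc12 and Hoxc13 had 0 counts throughout. All 11 central members (numbers 5 to 8) were tested, against 9 of 12 anterior members (1 to 4) and 6 of 16 posterior members (9 to 13).

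Posterior genes of HoxA and HoxC differed most between depots. Hoxa9 was 0.04, 0.02 and 0.03 TPM in the BAT libraries, 0.79, 0.37 and 0.33 in EWAT, 6.96, 7.94 and 2.56 in IWAT and 3.52, 2.96 and 2.24 in RWAT. The order of its depot means was IWAT, RWAT, EWAT and BAT, and only the neighbours IWAT and RWAT overlapped, through IWAT 3. Hoxa10, a regulator of the lumbar and hindlimb region, was 0.03, 0 and 0 TPM in BAT, 0.44, 0.15 and 0.25 in EWAT, 11.99, 8.58 and 3.92 in IWAT and 4.92, 3.14 and 2.14 in RWAT. Again IWAT 3 fell within the range of RWAT, and BAT, EWAT and the other depots were apart from one another. Hoxc10, the HoxC paralogue of Hoxa10, was 0 TPM in all 3 BAT libraries, 0.20, 0.06 and 0.17 in EWAT, 7.30, 8.81 and 3.59 in IWAT and 4.06, 2.44 and 1.73 in RWAT. It showed the same order and the same overlap of IWAT 3 with RWAT. The gene lies on chromosome 15 (chr15:102966796-102971893, plus strand). For Hoxa9, Hoxa10 and Hoxc10 the TPM values of BAT and EWAT were apart, but RSEM's bounds on them overlapped. For Hoxa10 the bounds were 0.028 to 0.357 in BAT 2 and 0.110 to 0.419 in EWAT 2. For Hoxa9 they were 0.088 to 0.847 and 0.252 to 0.985, and EWAT 1 (0.542 to 2.03) overlapped RWAT 3 (1.81 to 3.54). Each Hoxa9 value in BAT lay below its own lower bound.

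In counts, Hoxc10 had 14 over the 3 EWAT libraries and 0 in BAT. With BAT set to a floor of 3 counts over the depot, EWAT was 4.49-fold above it. IWAT, with 563 counts, was 43.4-fold above EWAT, and RWAT, with 242, was 18.2-fold above it. Hoxa10 had 25 counts in EWAT and 1 in BAT, so that EWAT was 24.1 times BAT (95% counting interval 3.94 to 988). Its ratio to EWAT was 27.8 in IWAT and 12.03 in RWAT. Intervals cover counting error only, and a value at the floor leaves out the counting error of the higher depot. In these summed counts EWAT stood between BAT and the other white depots. Hoxa9 had 32 counts in EWAT against 6 in BAT, 446 in IWAT and 235 in RWAT. This describes depot totals, and the edgeR test below called none of these genes in BAT against EWAT or in RWAT against EWAT.

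The paralogues with number 9 in the other clusters differed less. Hoxc9 was 0.07, 1.33 and 0.43 TPM in BAT, 1.20, 0.88 and 1.27 in EWAT, 4.55, 5.51 and 3.12 in IWAT and 1.78, 1.73 and 2.00 in RWAT. IWAT was above every other depot, RWAT above EWAT, and only BAT and EWAT overlapped. Hoxd9 was 0.17, 0.44 and 0.21 TPM in BAT, 0.54, 0.27 and 0.46 in EWAT, 0.60, 0.96 and 1.74 in IWAT and 0.85, 0.49 and 0.34 in RWAT. Its IWAT libraries were above those of EWAT and BAT but overlapped RWAT. Hoxb9 was 0.29, 0.61 and 0.26 TPM in BAT, 1.02, 0.10 and 0.26 in EWAT, 0.15, 0.41 and 0.65 in IWAT and 0.27, 0.42 and 0.03 in RWAT, with all 4 depots overlapping.

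**Figure D2:**
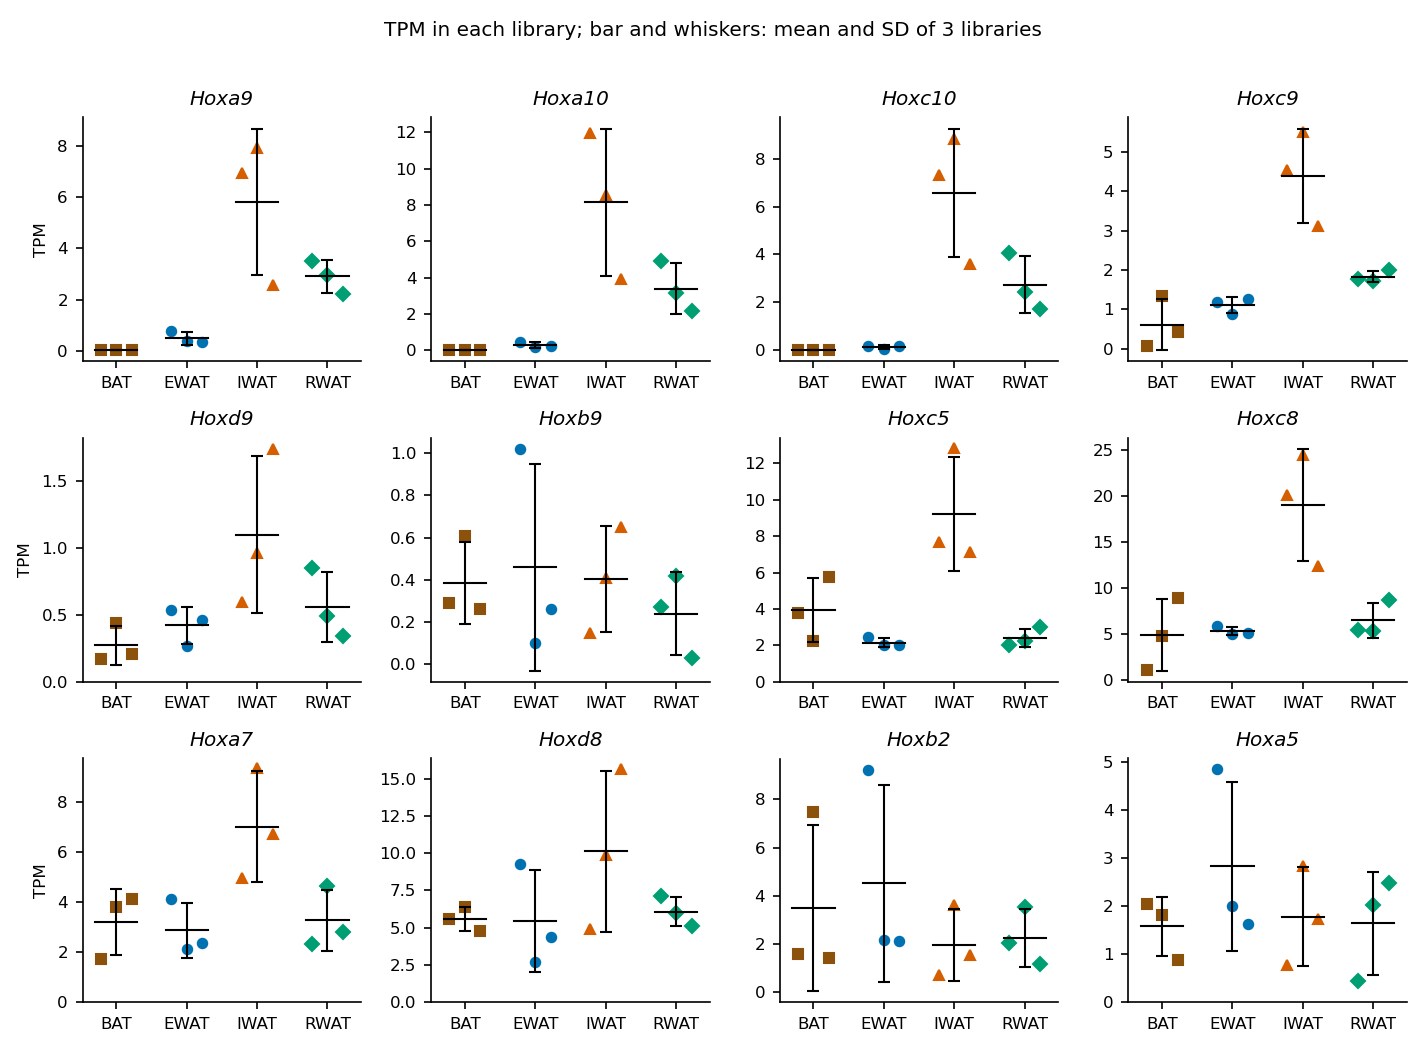
TPM of 12 Hox genes in each library by depot (linear axes, a different scale in each panel), with the mean and SD of 3 libraries. In Hoxa9, Hoxa10 and Hoxc10 the depots follow the order IWAT, RWAT, EWAT, BAT, while in Hoxb9, Hoxb2 and Hoxa5 all depots overlap and EWAT 1 is the highest library.

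The members beyond number 10 were at the limit of detection and were not tested. Hoxc11 had 5, 14 and 4 counts in IWAT, 6, 0 and 1 in RWAT and 0 in every BAT and EWAT library. With the depots at 0 set to the same floor, IWAT was 8.27-fold above EWAT and 7.95-fold above BAT. Hoxa11, a gene of the limb and urogenital region, had its highest total in EWAT. Its counts were 9, 3 and 5 in EWAT, 6, 3 and 0 in IWAT, 1, 0 and 0 in RWAT and 0 in BAT. The 17 counts in EWAT against 9 in IWAT made a ratio of only 1.75, and the libraries of these 2 depots overlapped. With BAT set to the floor, EWAT was 5.45-fold above it. The 17 counts in EWAT against 1 in RWAT made it 16.1 times RWAT (95% counting interval 2.52 to 673). Hoxa13, the last gene of HoxA, had 1, 2 and 4 counts in EWAT, 2, 0 and 0 in IWAT, 0, 1 and 0 in RWAT and 0 in BAT. Hoxd10, a paralogue of Hoxa10, was 0 TPM in all BAT libraries, 0.09, 0.02 and 0 in EWAT, 0.06, 0.16 and 0.27 in IWAT and 0.16, 0.04 and 0.08 in RWAT. The highest-numbered member with over 3 counts in a depot was number 9 in all 4 clusters in BAT. In EWAT it was Hoxa13, Hoxb9, Hoxc10 and Hoxd9, in IWAT Hoxa11, Hoxb9, Hoxc11 and Hoxd11, and in RWAT Hoxa10, Hoxb9, Hoxc11 and Hoxd10.

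As a share of a cluster's summed TPM, genes numbered 9 to 13 gave 0.192% to 0.956% of HoxA in BAT, 7.61% to 10.1% in EWAT, 28.8% to 57.6% in RWAT and 31.6% to 68.9% in IWAT. RWAT and IWAT overlapped, and the other depots did not. In BAT this share rested on 6 counts of Hoxa9 and 1 of Hoxa10. Hoxa9 in EWAT was 5.13 times BAT by counts, while its mean TPM was 0.497 in EWAT and 0.03 in BAT. The share in TPM therefore depends on the length that RSEM gave the gene. In HoxC the posterior share was 0.639% to 6.84% in BAT, 6.46% to 11.1% in EWAT, 14.0% to 30.4% in RWAT and 18.7% to 22.5% in IWAT, so that BAT overlapped EWAT and RWAT overlapped IWAT. In HoxB it was between 0.396% and 4.64% in all 12 libraries, with every depot overlapping. In HoxD it was 2.38% to 5.04% in BAT and 7.77% to 11.2% in IWAT, which did not overlap, while EWAT and RWAT overlapped each other and IWAT, and RWAT also BAT.

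**Figure D3:**
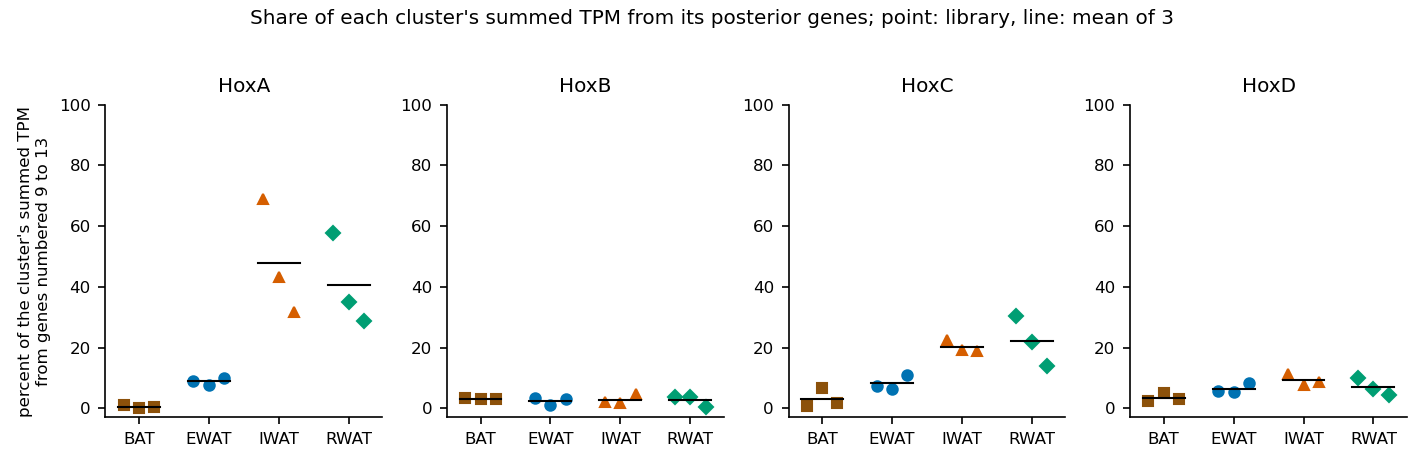
Percent of each cluster's summed TPM that came from genes numbered 9 to 13, with 1 point per library and a line at the mean of 3 libraries. In HoxA the share is 0.192% to 0.956% in BAT, 7.61% to 10.1% in EWAT and 28.8% or more in RWAT and IWAT, while in HoxB all depots lie between 0.396% and 4.64%.

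Among central genes, members of HoxC were high in IWAT. Hoxc8, a gene of the thoracic region, was 1.13, 4.78 and 8.93 TPM in BAT, 5.87, 5.07 and 5.09 in EWAT, 20.04, 24.47 and 12.45 in IWAT and 5.51, 5.34 and 8.72 in RWAT. IWAT was above every other library, and the other 3 depots overlapped. Hoxc5 was 3.80, 2.25 and 5.74 TPM in BAT, 2.45, 2.00 and 2.01 in EWAT, 7.66, 12.83 and 7.14 in IWAT and 2.03, 2.24 and 2.99 in RWAT. Here too IWAT was above the others, which overlapped. In GENCODE M21 the first exon of a Hoxc5 transcript shares 166 bases with an exon of Hoxc10, all on the plus strand (chr15:102967443-102967608). RSEM gave Hoxc5 a posterior SD of up to 2.40 counts, in IWAT 2, where its count was 305, and Hoxc10 had the same SD in each IWAT and RWAT library. The part of this overlap in the Hoxc5 result was not tested.

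Hoxa7, beside Hoxa9, was 1.72, 3.82 and 4.15 TPM in BAT, 4.15, 2.12 and 2.37 in EWAT, 4.96, 9.36 and 6.72 in IWAT and 2.35, 4.66 and 2.82 in RWAT. Its IWAT libraries were above all others, which overlapped, and its depot means ran from 2.88 to 7.01 TPM, against 0.03 to 5.82 TPM for Hoxa9. Hoxd8 was 5.58, 6.37 and 4.79 TPM in BAT, 9.28, 2.72 and 4.40 in EWAT, 4.89, 9.85 and 15.66 in IWAT and 7.10, 5.98 and 5.15 in RWAT. All 4 depots overlapped. Hoxa5 was 2.05, 1.81 and 0.89 TPM in BAT, 4.85, 2.00 and 1.64 in EWAT, 0.78, 2.84 and 1.73 in IWAT and 0.44, 2.02 and 2.48 in RWAT. Its depots overlapped as well, as did most of those of Hoxb5, which was 0.54, 0.33 and 0.42 TPM in BAT, 1.33, 0.63 and 0.26 in EWAT, 0.83, 1.62 and 1.16 in IWAT and 0.19, 0.22 and 0.52 in RWAT. Hoxb5 in IWAT was above BAT and RWAT but overlapped EWAT through EWAT 1.

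Anterior genes showed no difference called by edgeR. Hoxb2, the most abundant gene of HoxB and a gene of the hindbrain, was 1.60, 7.47 and 1.41 TPM in BAT, 9.23, 2.17 and 2.15 in EWAT, 0.74, 3.62 and 1.55 in IWAT and 2.06, 3.52 and 1.16 in RWAT. All depots overlapped, and the libraries BAT 2 and EWAT 1 stood above the rest of their depots. These are the libraries with the lowest pan-adipocyte sums in their depots, 5394 and 1722 TPM. EWAT 1 was the highest EWAT library in 19 of the 20 tested anterior and central members, BAT 2 the highest BAT library in 13 and IWAT 2 the highest IWAT library in 18. In RWAT, RWAT 3 was the highest in 12 and RWAT 2 in 7. The pan-adipocyte sum was the highest of its depot in IWAT 2 (34910 TPM) and the lowest in RWAT 2 (5163). Within depots the 10 adipose progenitor markers summed highest in EWAT 1 (2667 TPM), BAT 2 (3837), IWAT 2 (3984) and RWAT 2 (2492). Their sum was lowest of RWAT in RWAT 3 (1411). The part of tissue makeup in these levels was not tested.

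Differences between depots were tested with the edgeR quasi-likelihood test on counts, with p-values adjusted by the Benjamini-Hochberg method over all 18942 genes tested and a threshold of 0.05. Fold changes from this test are on the log2 scale of normalised counts, with their SE. In IWAT against EWAT, 4 of 26 tested Hox genes passed and all were higher in IWAT (15.4%). Over all genes 11.0% passed in either direction, 5.47% higher and 5.52% lower. The members' share called higher was above that of all genes, and no member was called lower. Hoxc10 rose by 5.43 ± 0.59 (adjusted p = 0.00532), Hoxa10 by 4.85 ± 0.66 (0.00545), Hoxa9 by 3.93 ± 0.55 (0.00705) and Hoxc5 by 1.60 ± 0.44 (0.0411). Hoxc9 was 1.79 ± 0.58 (adjusted p = 0.0667), Hoxc8 1.60 ± 0.62 (0.107), Hoxa7 1.04 ± 0.31 (0.0517) and Hoxd9 1.15 ± 0.43 (0.0982). Hoxb2 went the other way at -1.27 ± 0.54 (adjusted p = 0.140). By position, 3 of 6 posterior, 1 of 11 central and 0 of 9 anterior tested members passed, with median log2 fold changes of 2.86, 0.47 and -0.18, against 0.02 over all genes. The anterior members had 2 at an unadjusted p below 0.05. DESeq2 called 8 members, adding Hoxa7, Hoxc6, Hoxc8 and Hoxc9, against 20.0% of all genes that it called.

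In TPM, the 3 IWAT libraries were above the 3 EWAT libraries in 9 of the 26 tested members, against 16.4% of all tested genes, and below them in 0, against 3.64% (20.0% either way). The 9 were Hoxa7, Hoxa9, Hoxa10, Hoxc5, Hoxc6, Hoxc8, Hoxc9, Hoxc10 and Hoxd9. Hoxc5 missed the threshold when any of EWAT 1, EWAT 3, IWAT 1, IWAT 2, RWAT 1 or BAT 1 was left out alone (edgeR adjusted p = 0.0516 to 0.127). It also missed it when replicate number entered the fit as a block (0.0739). The same held when EWAT 1 and BAT 2, or RWAT 1 and RWAT 3, were left out together. In contrast, Hoxa9, Hoxa10 and Hoxc10 passed under all 23 alternatives tried. Other markers moved between the same depots: 7 of 10 adipose progenitor markers were called higher and 8 of 12 mesothelial markers called lower in IWAT, and 0 of 12 pan-adipocyte markers were called, with 8 at an unadjusted p below 0.05 and a median log2 fold change of 2.30. Their part in the Hox result was not tested.

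**Figure D4:**
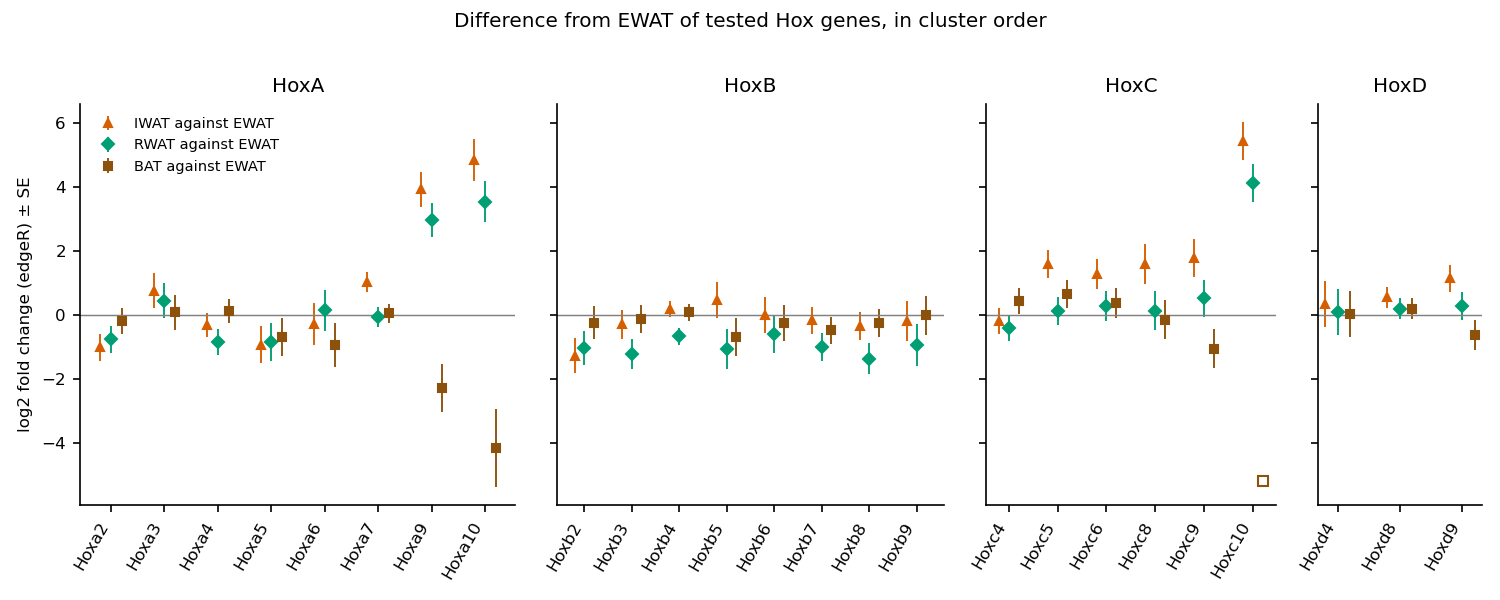
Fitted log2 fold change against EWAT (± SE) of tested Hox genes in cluster order, for IWAT, RWAT and BAT. All 3 comparisons share the EWAT libraries. Hoxa9, Hoxa10 and Hoxc10 lie at 2.97 to 5.43 in IWAT and RWAT and below 0 in BAT. The open square is Hoxc10 in BAT, which had 0 counts, so its fitted value is no measure of size.

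RWAT against EWAT gave 0 of 26 Hox genes past the threshold in edgeR, with 0.00528% of all genes called, and 7 of 26 at an unadjusted p below 0.05 (26.9%, against 4.81% of all genes). DESeq2 called 3, namely Hoxa9, Hoxa10 and Hoxc10, and 0.681% of all genes, and limma-voom 0 members (5 at an unadjusted p below 0.05). The edgeR log2 fold change was 4.13 ± 0.59 for Hoxc10, 3.55 ± 0.64 for Hoxa10 and 2.97 ± 0.54 for Hoxa9 (adjusted p = 0.192 each). In TPM the RWAT libraries were above the EWAT libraries in 4 members, Hoxa9, Hoxa10, Hoxc9 and Hoxc10, against 7.14% of all genes, and below them in 0, against 0.538% (7.68% either way). All 8 tested HoxB genes had a negative fold change, from -1.36 to -0.60, and 4 of them an unadjusted p below 0.05. The HoxB sum was 31.45 TPM in EWAT 1, 8.95 and 8.23 in EWAT 2 and EWAT 3, and 7.38 to 11.27 in RWAT. The 7 of 26 members at an unadjusted p below 0.05 became 3 without EWAT 1, and 3 without RWAT 1. Without RWAT 2 edgeR called Hoxa10 and Hoxc10 (2 of 26), and 79 of all 19519 genes tested. Without IWAT 3 it called Hoxa9 (1 of 26), and 4 of all 19579 genes tested. All 12 skeletal muscle markers had an unadjusted p below 0.05 in this pair, with 0 called, and their part was not tested. Without RWAT 1 and RWAT 3, which hold most of these transcripts, the log2 fold change was 2.70 for Hoxa9, 3.04 for Hoxa10 and 3.63 for Hoxc10. RWAT is then 1 library, assumed to vary like the other depots, so these values carry little weight as a test (0 of 27 called, 4 at an unadjusted p below 0.05).

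IWAT against RWAT gave 0 of 26 Hox genes past the edgeR threshold, with 0% of all genes called, and 8 at an unadjusted p below 0.05 (30.8%, against 20.6% of all genes). DESeq2 called 3, Hoxa7, Hoxb4 and Hoxc5, all higher in IWAT, and 6.07% of all genes, and limma-voom 0 members (8 at an unadjusted p below 0.05). Of the 26 fold changes 21 were positive, with a median of 0.85, against 0.01 over all genes. Hoxa10 was 1.31 ± 0.53 (adjusted p = 0.197), Hoxc10 1.298 ± 0.456 (0.171), Hoxc9 1.27 ± 0.57 (0.238), Hoxc8 1.47 ± 0.62 (0.215), Hoxc5 1.47 ± 0.43 (0.138), Hoxb5 1.52 ± 0.61 (0.198) and Hoxa7 1.104 ± 0.309 (0.133). In TPM the IWAT libraries were above the RWAT libraries in 5 members, Hoxa7, Hoxb5, Hoxc5, Hoxc8 and Hoxc9, against 13.2% of all genes, and below them in 0, against 3.56% (16.8% either way). The muscle markers differed here too, with 12 of 12 at an unadjusted p below 0.05 and lower in IWAT, 0 called, and their part was not tested.

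BAT against EWAT gave 0 of 26 Hox genes past the edgeR threshold, with 0.143% of all genes called (0.0897% higher, 0.0528% lower), and 3 at an unadjusted p below 0.05 (11.5%, against 9.95% of all genes, a share near the background). DESeq2 called 2, Hoxa10 and Hoxc10, both lower in BAT, and 2.52% of all genes, and limma-voom 0 members (2 at an unadjusted p below 0.05). The edgeR log2 fold change of Hoxa9 was -2.27 ± 0.76 (adjusted p = 0.284) and that of Hoxa10 -4.15 ± 1.21 (0.210). With an offset for effective length, that of Hoxa9 was -3.62 (edgeR adjusted p = 0.0684). The adjusted p of Hoxc10 was 0.213, and its size is given only by the value at the floor above. In TPM these 3 genes were lower in every BAT library than in every EWAT library, against 1.87% of all genes, and 0 were higher, against 4.52% (6.39% either way). All 6 tested posterior members had a negative fold change, and the 9 anterior members had values between -0.23 and 0.43. Of the mesothelial markers 11 of 12 had an unadjusted p below 0.05 in this pair (2 called lower in BAT, median log2 fold change -4.98), and of the adipose progenitor markers 8 of 10 (1 called higher, median 1.46). Their part in the Hox values was not tested.

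BAT against IWAT gave 3 of 26 Hox genes past the threshold, Hoxa9, Hoxa10 and Hoxc10, all lower in BAT, with 0.0264% of all genes called in either direction, 0.0106% higher and 0.0158% lower. They were the 3 genes called lower in this pair. Hoxa9 fell by 6.20 ± 0.67 (adjusted p = 0.00412). Hoxa10 and Hoxc10 also fell (adjusted p = 0.00372 and 0.00462). Hoxc9 was -2.83 ± 0.62 (adjusted p = 0.194), Hoxc8 -1.75 ± 0.62 (0.335), Hoxd9 -1.77 ± 0.45 (0.236) and Hoxa7 -0.99 ± 0.31 (0.297). In TPM 10 members were lower in every BAT library, against 13.6% of all genes, and 0 higher, against 1.87% (15.5% either way). DESeq2 called 4, Hoxa9, Hoxa10, Hoxc9 and Hoxc10, all lower in BAT, and 321 of all 18942 genes. Limma-voom and a fit of these 6 libraries alone called 0 Hox genes, with 8 and 9 at an unadjusted p below 0.05. Without BAT 1, the library with high Ucp1, 2 were called, Hoxa9 and Hoxc10, and 3 of all 19490 genes tested.

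BAT against RWAT also gave 3 of 26, the same genes and all lower in BAT, with 0.0211% of all genes called in either direction, 0.00528% higher and 0.0158% lower. Hoxa9 fell by 5.25 ± 0.67, and Hoxa10 and Hoxc10 fell as well (adjusted p = 0.0209 each). Hoxc9 was -1.57 ± 0.61 (adjusted p = 0.983). All 8 tested HoxB genes had a positive fold change, from 0.35 to 1.13, with 3 at an unadjusted p below 0.05 and 0 called. In TPM 5 members were lower in every BAT library and 2, Hoxb3 and Hoxc4, higher, against 5.21% and 1.04% of all genes (6.25% either way). Of the mesothelial markers 11 of 12, and of the muscle markers 9 of 12, had an unadjusted p below 0.05 and were lower in BAT on the median, with 0 called, and their part was not tested. The calls were lost on leaving out single libraries. Without BAT 1, BAT 3, EWAT 1, EWAT 2, EWAT 3, IWAT 2 or RWAT 3, each left out alone, 0 of 26 were called (5 to 8 at an unadjusted p below 0.05). In these fits the log2 fold change of Hoxa9 was -5.19 to -5.64. That of Hoxa10 was -7.27 to -7.84 where BAT 1 was kept, and it rests on 1 count in BAT. Without BAT 1, Hoxa10 had 0 counts in BAT, so its fitted value there is no measure of size. DESeq2 called Hoxa9, Hoxa10 and Hoxc10 (3 of 26), all lower in BAT, and 44 of all 18942 genes. With limma-voom 0 were called (8 at an unadjusted p below 0.05). With RWAT 2 as the only RWAT library, 0 of 27 were called (3 at an unadjusted p below 0.05), with Hoxa9 at -4.98 and Hoxa10 at -7.20.

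Along the clusters, the fold change of IWAT against EWAT rank-correlated with the gene's number at 0.667 in HoxA (9 genes), 0.943 in HoxC (6 genes) and 0.095 in HoxB (8 genes). For BAT against IWAT the values were -0.833, -0.943 and -0.190. These are Spearman correlations across neighbouring genes measured in the same libraries, given as a description without a test. In HoxA the 6 genes from Hoxa2 to Hoxa7 lay between -1.004 and 1.04, and Hoxa9 and Hoxa10 at 3.93 and 4.85. A rank correlation takes no account of the size of this gap. In HoxC the values were -0.18 at Hoxc4, 1.29 to 1.79 at Hoxc5, Hoxc6, Hoxc8 and Hoxc9, and 5.43 at Hoxc10. HoxB genes lay between -1.27 and 0.47.

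Across the 12 libraries, Hoxc10 (Pearson r = 0.993) and Hoxa9 (0.987) had the log2 CPM patterns most like that of Hoxa10 among the members, followed by Hoxc9 (0.803) and Hoxd9 (0.739), while Hoxb9 was at -0.334. Outside the clusters the 5 genes with the highest r were 9330132A10Rik (0.896), Col4a3bp (0.842), Gm14435 (0.836), Gm15527 (0.821) and Dpy19l4 (0.819). The points share depots and depth, and no test was made. Of the 5, 9330132A10Rik and Gm15527 were at most 1.1 and 0.51 TPM in any library.

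The cofactors that bind DNA with Hox proteins showed no called difference. Of 9 Pbx, Meis and Pknox genes 8 were tested and 0 were called in any of the 6 pairs by edgeR, with 0 to 3 at an unadjusted p below 0.05 in each. The smallest p values belonged to Meis1, at 2.30 ± 0.11 TPM in BAT and 6.54 ± 2.33 in EWAT (mean ± SD, n = 3, log2 fold change -1.47 ± 0.30, edgeR adjusted p = 0.0900), and Pknox2, at 1.61 ± 0.69 and 3.85 ± 2.83 TPM (-1.55 ± 0.44, 0.211). Regulators of axial Hox expression, among them Cdx, retinoic acid receptor and Cyp26 genes, had 6 of 15 members tested and 0 called in any pair, with 0 to 2 at an unadjusted p below 0.05 in each. Rarg, a retinoic acid receptor, was 0.69 ± 0.22 in IWAT against EWAT (edgeR adjusted p = 0.0681), and Aldh1a2, which makes retinoic acid, was -2.41 ± 0.47 in BAT against EWAT (0.0823). Cdx2 and Cdx4 had 0 counts in all libraries. Polycomb and Trithorax regulators keep Hox genes off or on. Of 21 tested in IWAT against EWAT, 1 was called higher and 1 lower, against 5.47% and 5.52% of all genes, shares near the background. The lower was Eed, a core subunit of the Polycomb methyltransferase complex, which fell by 0.56 ± 0.16 (edgeR adjusted p = 0.0453). Its TPM overlapped between the depots, at 24.94, 41.94 and 33.32 in IWAT and 62.73, 23.21 and 46.58 in EWAT.

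Of 17 non-coding RNAs of the Hox clusters found in the tables, 5 were tested and 0 called in any pair, with 0 or 1 at an unadjusted p below 0.05. Hoxd3os1, which overlaps Hoxd3 and Hoxd4, was 6.07 ± 3.45 TPM in IWAT and 1.77 ± 0.34 in EWAT (mean ± SD, n = 3, log2 fold change 1.15 ± 0.50, edgeR adjusted p = 0.146). Hoxb3os had an adjusted p of 0.968 in the same pair and 0.274 in IWAT against RWAT. Hotair, transcribed opposite HoxC, had 3 counts over all 12 libraries, and Hottip, beside Hoxa13, had 0. Of the 39 members, 10 share exon bases with a gene on the opposite strand, Hoxa7 and Hoxb2 among them, and whether reads were counted by strand was not given in the sources used here. Reads of such a pair cannot be told apart without strand.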

How the data were processed

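RNA of 12 libraries, 3 per depot, was analysed from the RSEM table deposited for each. Per the submitters' processing notes, the authors used Trimmomatic 0.36, RSEM 1.3.0 on GRCm38.p4 and DESeq2 1.10.1. The aligner, the annotation release and the strand setting are not given in the sources used here. Per the file headers, the deposited expected count is an estimated read count per gene and TPM an abundance corrected for length and scaled to a fixed total. Other deposited columns, per the file headers, hold RSEM's effective length, its posterior SD of the count and bounds on TPM.

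Hox members were matched by symbol, and all 39 were found in GENCODE M21, the source of positions, as were 47310 of 47729 Ensembl IDs. Levels are the deposited TPM. Expected counts were rounded and tested with edgeR 4.0.16 (R 4.3.3): filterByExpr with a minimum count of 10, TMM scaling (0.846 to 1.14), 1 coefficient per depot over all 12 libraries, a biological coefficient of variation of 0.385, the quasi-likelihood F test with the adjustment for small counts, two-sided, for 6 pairs of depots. Folds from counts use depot totals scaled by effective library size, with a floor of 3 counts over a depot and exact 95% intervals. No molecular identifiers were described.

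Values in all libraries are given for members past the threshold in any pair, the most abundant member of each cluster and the paralogues of the former. For related lists, called genes or the 2 with the smallest p are named, and likeness to the member with the smallest p was ranked by Pearson r of log2 CPM (prior count 2). Hoxa11, Hoxa13 and Hoxc11, and the non-coding RNAs and Cdx genes at or near 0, were named after their values were seen. The members and lists were chosen with earlier results of these data known. Replicate numbers paired the samples by the check used, over 0.1 in all 3 same-numbered pairs, for BAT and RWAT only, where r was 0.182, 0.429 and 0.199, and the fit without the block was kept. Alternatives were other scaling, filters, DESeq2 1.42.0, limma-voom (limma 3.58.1), fewer libraries, a length offset and a replicate block. The fit was tested on simulated data. A Hox member and a related gene that entered the fits and counts are not reported here by name.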

Additional observations from a re-analysis of the deposited data

How the results depend on the processing

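Of the Hox fold changes, the 33 of a gene in a pair with an unadjusted p below 0.05 and values in every library above were recomputed under 23 alternatives, and none changed sign. Hoxa9, Hoxa10 and Hoxc10 in BAT against EWAT gave no value in the fit of only those depots, where they did not pass the filter on low counts. The counts of Hox genes called moved with the test. With DESeq2 they were 8 in IWAT against EWAT, 3 in RWAT against EWAT, 3 in IWAT against RWAT and 2 in BAT against EWAT, where edgeR gave 4, 0, 0 and 0. With limma-voom 0 were called in BAT against IWAT and 0 in BAT against RWAT, and in a fit of only the depots compared 0 in BAT against IWAT, where the edgeR fit gave 3 each. Over all genes DESeq2 called 3780 and edgeR 2082 in IWAT against EWAT, and the cause of these differences was not tested. In BAT against RWAT 0 were called without RWAT 1 and RWAT 3, which leaves RWAT with 1 library assumed to vary like the other depots, and 0 without EWAT 1 and BAT 2. Leaving out 1 library at a time gave 3 to 5 calls in IWAT against EWAT, 0 to 2 in RWAT against EWAT, 2 to 4 in BAT against IWAT, 0 to 3 in BAT against RWAT and 0 in the other pairs. Over all genes the same fits called 55 to 2769 in IWAT against EWAT and 0 to 79 in RWAT against EWAT. They called 3 to 82 in BAT against IWAT and 0 to 28 in BAT against RWAT. In IWAT against RWAT they called 0 to 61, and in BAT against EWAT 3 to 247. The number of tested members with their highest mean TPM in IWAT was 16, against 14 in CPM and 14 to 23 with 1 library left out, the last added after seeing the data. With the replicate number as a block the calls were 3 in IWAT against EWAT (Hoxc5 was lost), 0 in RWAT against EWAT, 0 in IWAT against RWAT, 0 in BAT against EWAT, 3 in BAT against IWAT and 3 in BAT against RWAT. Same-numbered libraries deviated together at r of -0.359 to 0.429. The older quasi-likelihood of edgeR, added after seeing the data, gave the same 6 counts of Hox genes called as the newer. Low counts limit the posterior genes, and 13 members were not tested.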

Other observations

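Among 8 homeobox genes outside the Hox clusters that are related to them, Meox2, a factor of the somite and of blood vessels, differed between depots. It was 7.51, 13.08 and 8.58 TPM in BAT, 5.48, 2.11 and 2.63 in EWAT, 4.64, 13.86 and 13.52 in IWAT and 6.46, 11.11 and 7.01 in RWAT. Only EWAT 1 reached the range of any other depot, that of IWAT. Meox2 rose by 1.42 ± 0.25 on the log2 scale in IWAT against EWAT and by 1.61 ± 0.25 in BAT against EWAT (edgeR adjusted p = 0.0132 and 0.0339), and was 1.15 ± 0.25 in RWAT against EWAT (0.253). Meox1, the other tested gene of the list, passed in 0 pairs, and the other 6 had 0 counts in all 12 libraries.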
